A study of Mus musculus with 6 samples.

Results

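Oligodendrocytes, the myelin-forming cells of the brain, arise from dividing precursor cells that spread through the brain around birth and begin to mature in the first postnatal weeks. Precursors are recognised by the growth factor receptor Pdgfra and the proteoglycan encoded by Cspg4. The basic helix-loop-helix factors Olig1 and Olig2, the homeodomain factor Nkx2-2 and the related HMG-box factors Sox10 and Sox8 specify the lineage and drive its maturation, and the receptor Gpr17 marks the short stage between precursor and myelinating cell.

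The data described here are the values of these 8 genes, Pdgfra, Cspg4, Olig1, Olig2, Sox10, Gpr17, Nkx2-2 and Sox8, on every probe set that the array annotation pairs with 1 of them and no other gene. That gave 13 of 34945 single-gene probe sets and 8 of 18193 measured genes. The rule that picks the probe sets uses gene names and no measured value.

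RNA levels were measured in the whole brain of C57BL/6 mouse pups. The groups were females given testosterone propionate (TP, an ester of testosterone; 2 arrays), females given vehicle (2 arrays), males given TP (1 array) and males given vehicle (1 array). TP was 1 mg in 20 µL of sesame oil and the vehicle was the oil alone, both injected into the peritoneum on postnatal day 2, with brains taken on postnatal day 6. Each array carried RNA pooled from 6 mice, so differences between single animals are not visible. The later female array of each treatment is labelled a replica, and the labels do not say that it came from other mice, so the spread behind every p-value may be technical. Male values rest on single arrays.

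All values are log2 expression on the scale of the deposited table, where 1 unit is a doubling. The 6 arrays had medians between 5.69 and 5.74. Neuron markers were bright on every array, with mean levels over 12 genes of 11.16 to 11.19 in TP and 11.17 to 11.23 in vehicle brains. The Y-linked gene Eif2s3y stood at 9.12 in the male TP and 9.16 in the male vehicle array, and between 2.84 and 3.10 on the 4 female arrays. Xist, the RNA that coats the inactive X chromosome of females, stood at 10.45 in the male TP array and 5.29 in the male vehicle array, and between 12.61 and 12.83 in females. The array labelled male TP therefore carries a transcript that its label does not predict, and TP differences over both sexes are given beside those of females alone.

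The brightest probe set of each of the 8 genes lay above 5.49, the 40th percentile of mean expression over probe sets, a mark that is no detection call. Below it lay 2 further probe sets, 1421916_at of Pdgfra and 1425369_a_at of Sox10, which are called dim here. Apart from this mark, no level of one probe set is compared with that of another.

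TP was compared with vehicle over all 6 arrays, adjusting for sex, and on the 4 female arrays alone. In neither comparison did any of the 13 probe sets pass an adjusted p under 0.05 (limma, Benjamini-Hochberg over 34945 probe sets). Over both sexes 0% of all probe sets passed, and in females 0.00572%, so single probe sets seldom passed anywhere on these arrays. At an unadjusted p under 0.05 the members numbered 0 of 13 over both sexes, where 12.3% of all probe sets lay, and 1 of 13 in females, where 7.83% lay. With sexes combined, the brightest probe sets of the 8 genes differed by -0.078 to 0.034 log2 units. In females alone they differed by -0.045 to 0.048. In whole-brain RNA, fewer cells of a type and less RNA per cell cannot be told apart, and neither can a lack of change in both from changes that offset each other.

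**Figure D1:**
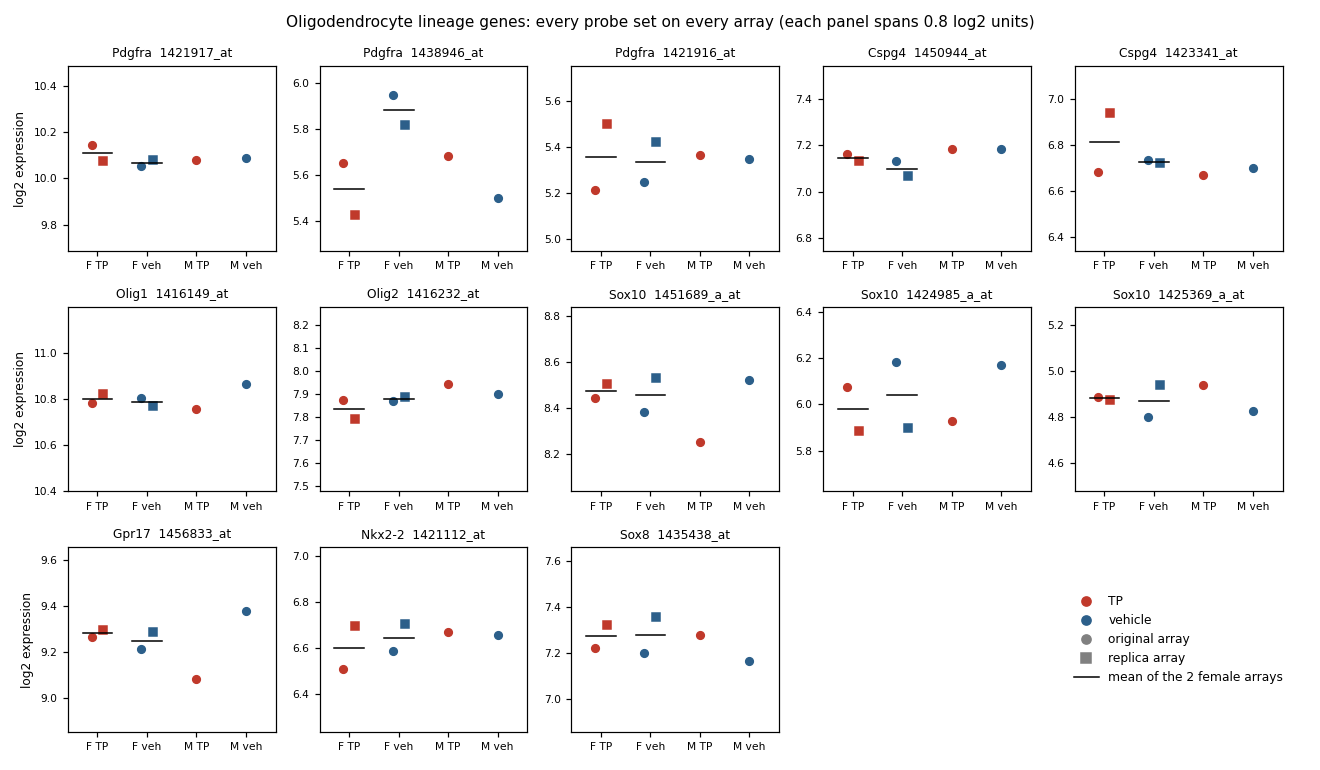
Log2 expression of the 13 probe sets of the 8 oligodendrocyte lineage genes on each of the 6 arrays, 1 panel per probe set, each spanning 0.8 log2 units (F, female; M, male; veh, vehicle; circles, original arrays; squares, replica arrays; black bars, means of 2 female arrays). In most panels the red TP points and the blue vehicle points overlap; Gpr17 and Sox10 1451689_a_at show a low point on the male TP array, and Pdgfra 1438946_at shows female TP below female vehicle.

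Pdgfra encodes the receptor for PDGF-A, the main mitogen of the precursors. Its brightest probe set, 1421917_at, stood at 10.14 and 10.08 in female TP and 10.08 in male TP brains, against 10.05 and 10.08 in female vehicle and 10.09 in male vehicle brains. The 6 values lay within 0.091 log2 units of each other and the groups overlapped. The female difference was 0.044 (95% interval -0.14 to 0.23, limma adjusted p = 0.919), which as a ratio allows anything from 0.906 to 1.17.

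Another Pdgfra probe set, 1438946_at, gave a different picture in females. It stood at 5.65 and 5.43 in female TP brains, against 5.95 and 5.82 in female vehicle brains, so both TP arrays lay below both vehicle arrays. The difference was -0.34 (SE 0.10, 95% interval -0.59 to -0.088, unadjusted p = 0.0159, limma adjusted p = 0.587). In males the values ran the other way, at 5.68 with TP and 5.50 with vehicle, and over both sexes the difference was -0.17 (adjusted p = 0.603). The probe set lies just above the dim threshold, and the third, dim one, 1421916_at, had a female difference of 0.024, so the 3 probe sets of Pdgfra did not give 1 direction. Leaving out female TP array 2 or female vehicle array 1 moved the female difference at 1438946_at to -0.23 or -0.27. Leaving out the other array of either group made it more negative than in the main fit.

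Cspg4 encodes the NG2 proteoglycan of the precursor surface, which pericytes also carry. At 1450944_at it stood at 7.16 and 7.13 in female TP and 7.19 in male TP brains, against 7.13 and 7.07 in female vehicle and 7.18 in male vehicle brains. The female TP arrays lay above the female vehicle arrays, but by less than 0.0001 log2 units between TP array 2 and vehicle array 1. The female difference of 0.048 (95% interval -0.14 to 0.23, limma adjusted p = 0.913) did not pass. The other probe set, 1423341_at, had a female difference of 0.083 (SE 0.10), set by TP array 2 at 6.94, while the other 5 arrays lay between 6.67 and 6.74. Without that array the female difference was -0.046.

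Cspg4 1450944_at and Pdgfra 1438946_at were the only 2 of the 13 member probe sets whose female groups did not overlap, 1 with TP above and 1 with TP below. Over all probe sets 16.0% had TP above and 22.5% TP below, 38.4% in all. With all 6 arrays the groups of 3 overlapped at each of the 13 probe sets, where 15.1% of all probe sets did not overlap.

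Olig2, the factor that makes neural progenitors enter the lineage, stood at 7.88 and 7.79 in female TP and 7.95 in male TP brains, against 7.87 and 7.89 in female vehicle and 7.90 in male vehicle brains. The TP arrays held both the lowest and the highest of these values. Its difference over both sexes was -0.015 (95% interval -0.16 to 0.13, limma adjusted p = 0.939), and in females alone -0.045. Olig1, its neighbour in the genome and a factor of later maturation, stood at 10.78 and 10.82 in female TP and 10.76 in male TP brains, against 10.80 and 10.77 in female vehicle and 10.87 in male vehicle brains. Here the male arrays were the extremes and the female arrays lay between them. The difference over both sexes was -0.026 (95% interval -0.17 to 0.12, adjusted p = 0.890), which corresponds to a ratio of 0.982 with bounds of 0.889 and 1.08. In females alone it was 0.015, of the opposite sign.

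Nkx2-2, which promotes the step from precursor to differentiating oligodendrocyte and is also used by ventral progenitors and serotonin neurons, stood at 6.51 and 6.69 in female TP and 6.67 in male TP brains, against 6.59 and 6.70 in female vehicle and 6.65 in male vehicle brains. Sox8, a partner of Sox10 with an overlapping role in glia, stood at 7.22 and 7.32 in female TP and 7.28 in male TP brains, against 7.20 and 7.36 in female vehicle and 7.17 in male vehicle brains. For both genes the 2 arrays of a female group differed by more than the group means did. The differences over both sexes were -0.023 for Nkx2-2 (95% interval -0.19 to 0.15, limma adjusted p = 0.922) and 0.034 for Sox8 (95% interval -0.13 to 0.20, adjusted p = 0.879). In females alone they were -0.042 for Nkx2-2 and -0.0053 for Sox8, the sign of Sox8 being turned.

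Sox10, which is needed for the expression of myelin genes and is shared with Schwann cells, had 3 probe sets. At the brightest, 1451689_a_at, it stood at 8.44 and 8.50 in female TP and 8.25 in male TP brains, against 8.38 and 8.53 in female vehicle and 8.52 in male vehicle brains. The male TP array was the lowest of the 6, and the female groups overlapped. The female difference was 0.017 (95% interval -0.19 to 0.23, limma adjusted p = 0.977) and that over both sexes -0.078 (95% interval -0.27 to 0.11, adjusted p = 0.733). The probe set 1424985_a_at had differences of -0.058 in females and -0.12 over both sexes, and the dim 1425369_a_at had 0.011 and 0.045.

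Gpr17, a G protein-coupled receptor that restrains the final maturation of committed precursors, stood at 9.27 and 9.30 in female TP and 9.09 in male TP brains, against 9.21 and 9.29 in female vehicle and 9.38 in male vehicle brains. The male arrays held the lowest and the highest value, and the 4 female arrays lay within that range. The female difference was 0.032 (95% interval -0.16 to 0.22, limma adjusted p = 0.949). Over both sexes it was -0.076 (95% interval -0.27 to 0.11, adjusted p = 0.738).

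**Figure D2:**
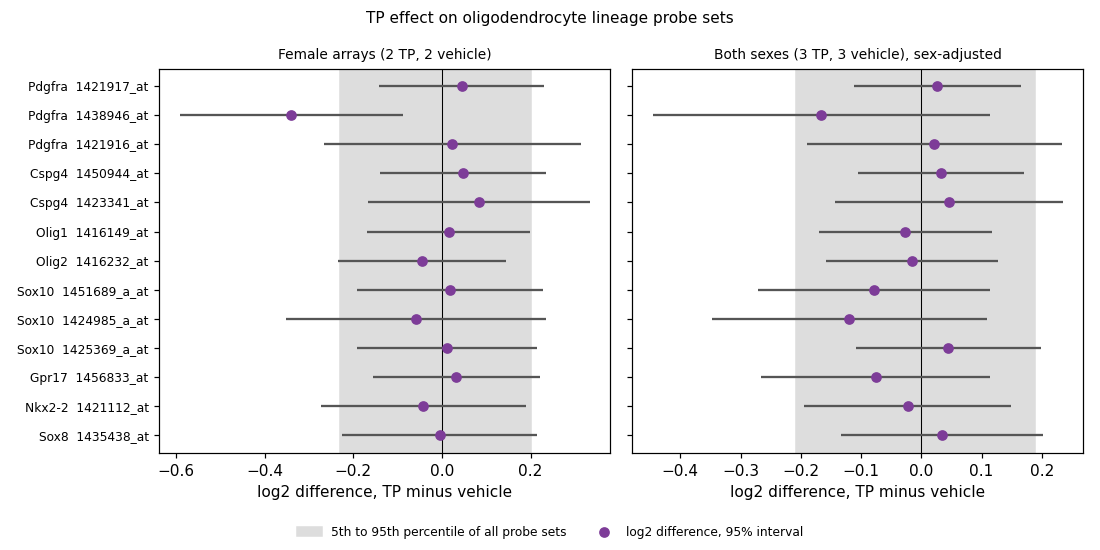
Log2 difference, TP minus vehicle, of each probe set with its 95% interval from limma, on the 4 female arrays (left) and over both sexes with sex adjusted (right). The grey band spans the 5th to 95th percentile of the differences of all 34945 probe sets, -0.23 to 0.20 in females and -0.21 to 0.19 over both sexes; Pdgfra 1438946_at in females, at -0.34, is the only point outside it.

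The intervals rest on the spread of these arrays, which may be technical, so they do not bound a change between other mice. Over both sexes the intervals of the brightest probe sets of the 8 genes reached no lower than -0.27 and no higher than 0.20 log2 units. In females alone they reached no lower than -0.27 and no higher than 0.23. Over all 13 probe sets the bounds were -0.45 and 0.24 over both sexes, and -0.59 and 0.33 in females. The median size of the difference, regardless of sign, was 0.034 log2 units over the 13 probe sets and 0.074 over all probe sets when both sexes were used, and 0.042 and 0.077 in females. By sign, 6 of the 13 differences were positive and 7 negative over both sexes, where 42.2% of all probe sets were positive, and 8 were positive and 5 negative in females, where 44.5% were positive.

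In males, with 1 array per treatment and no test, 4 of the 8 brightest probe sets had lower values with TP and 4 had higher (median -0.0038). The male differences were -0.29 for Gpr17, -0.27 for Sox10 and -0.11 for Olig1, while the other brightest probe sets ranged from -0.0084 for Pdgfra to 0.11 for Sox8. Over all probe sets the 5th to 95th percentile of the male difference ran from -0.32 to 0.29, so all 13 male differences of the members lay within the range of most probe sets. The second Sox10 probe set, 1424985_a_at, also had a lower value with TP in males (-0.24), whereas the dim one had 0.11. Of the 8 genes, 3 had their lowest and 2 their highest value on the male TP array, which held the lowest value for 27.5% and the highest for 11.8% of all measured genes.

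Whether the TP effect differed between the sexes was tested with each sex and treatment as its own group, which lends the spread of the female pairs to the 2 unreplicated male arrays. The effect in females minus that in males was 0.32 for Gpr17 (SE 0.14, 95% interval -0.0016 to 0.65, unadjusted p = 0.0508) and 0.29 for Sox10 1451689_a_at (SE 0.15, 95% interval -0.078 to 0.65, unadjusted p = 0.104). For Pdgfra 1438946_at it was -0.52 (SE 0.18, unadjusted p = 0.0259). All 13 had a limma adjusted p of at least 0.9999, while 0.0200% of all probe sets passed, and 1 of 13 had an unadjusted p under 0.05, where 4.84% of all did. For Olig1 the value was 0.12 and for Olig2 -0.089. Since the contrast contains the male TP array in full, it cannot be given without it.

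Male and female brains were also compared over both treatments. The 13 differences, male minus female, lay between -0.12 for Pdgfra 1438946_at and 0.067 for Olig2, and 0 passed by limma (smallest adjusted p = 0.686) or at an unadjusted p under 0.05. Of all probe sets 0.0114% passed and 12.5% had an unadjusted p under 0.05. The male side of this comparison includes the TP array with Xist at 10.45. Without that array the comparison is that of the single male vehicle array with the female vehicle arrays, and only differences are given. They lay between -0.38 for Pdgfra 1438946_at and 0.13 for Sox10 1424985_a_at. That of Gpr17 was 0.13, against -0.034 with the male TP array.

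Across the 6 arrays each of the 8 genes varied little, its brightest probe set ranging over 0.091 (Pdgfra) to 0.29 (Gpr17) log2 units. With so little variation, correlation over 6 arrays cannot show whether the genes vary together. Over 6 arrays, Pearson's r between pairs of brightest probe sets ran from -0.68 for Cspg4 and Sox8 to 0.94 for Sox10 and Gpr17, with a median of -0.010 over 28 pairs. Olig1 and Gpr17 had r = 0.76, while Olig1 and Olig2 had r = -0.35. These values share the same 6 arrays and their normalization, and the high ones include the low male TP point described above. The mean of the 8 genes, each centred on its own mean, moved only between -0.032 in female vehicle array 1 and 0.033 in the male vehicle array. Of 10908 other genes that were not dim, the 5 whose pattern over the 6 arrays was most like that mean were Ptprf (r = 0.99), Anks1 (r = 0.99), Ambra1 (r = 0.98), Mroh1 (r = 0.98) and Klhl42 (r = 0.98), and 65 genes (0.596%) had r above 0.9. They are the highest of 10908 values over only 6 arrays, so high r is found by the ranking itself. No link of these genes to the members can be read from it.

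The original or replica label of the female arrays was compared in the same way. At 6 of 13 member probe sets (46.2%) both replica arrays lay on the same side of both original arrays, in 5 cases above and in 1 below, and this held for 34.2% of all probe sets, so the members' share lay near the background. Nkx2-2, Sox8, Gpr17, Sox10 1451689_a_at and Pdgfra 1421916_at were higher on the replica arrays and Sox10 1424985_a_at was lower. What the label stands for in time or handling is not stated.

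Other genes of the lineage were placed beside the 8 by stage, with the brightest probe set standing for each gene, and 8 genes stand in more than 1 list. A gene is called dim below the same percentile over genes, 6.19. No gene in them passed over all probe sets in either TP comparison. Genes named for the smallest p were picked on the same arrays, so a lack of overlap between their groups follows largely from the picking. The shares of all probe sets given beside them are no test of it. Over all 18193 genes the median difference was -0.029 over both sexes, -0.024 in females and -0.034 in males, with 37.9% of genes positive over both sexes. Negative differences made up 62.1% of genes over both sexes, 59.2% in females and 59.6% in males.

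Among 21 other genes of precursors, 13 had positive and 8 negative differences over both sexes (median 0.014) and 14 were positive in males (median 0.020). In females 13 were positive (median 0.043), but the median was -0.012 when the probe sets of a gene were averaged. The lowest over both sexes was Matn4, at -0.14 (-0.17 in females). Those with the smallest p were Vcan, a chondroitin sulphate proteoglycan of the matrix (0.23, SE 0.08, limma adjusted p = 0.346), Ptprz1, a receptor phosphatase of precursors and astrocytes (0.19, SE 0.07, adjusted p = 0.360), and Pcdh15, a protocadherin (0.16, SE 0.07, adjusted p = 0.408). Vcan stood at 9.49, 9.46 and 9.41 in the TP arrays (2 female, 1 male), against 9.09, 9.29 and 9.29 in the vehicle arrays, so the groups did not overlap, which held in this direction for 6.01% of all probe sets. In females alone the differences were 0.29 for Vcan, 0.23 for Ptprz1 and 0.14 for Pcdh15. Of the 8 Vcan probe sets, 3 had a difference of the opposite sign, as had 1 of the 3 of Pcdh15 and 0 of the 3 of Ptprz1.

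Among 22 genes of committed precursors and newly formed oligodendrocytes, 3 had positive and 19 negative differences over both sexes, with a median of -0.028, close to that of all genes, and 14 were negative in females. The values with the smallest p were -0.16 for Itpr2, a calcium release channel of the endoplasmic reticulum (SE 0.06, limma adjusted p = 0.379), -0.20 for Gpr37, an orphan receptor of maturing oligodendrocytes (SE 0.08, adjusted p = 0.397), and -0.17 for Myrf, the transcription factor that switches on myelin genes (SE 0.07, adjusted p = 0.407). Gpr37 stood at 6.51, 6.59 and 6.30 in the TP arrays (2 female, 1 male), against 6.62, 6.67 and 6.71 in the vehicle arrays, with the male TP array the lowest. Its difference was -0.091 in females and -0.41 in males. That of Myrf was -0.096 in females and -0.32 in males, and that of Itpr2 was -0.15 in females and -0.19 in males. Of the 6 Itpr2 probe sets, 2 had a difference of the opposite sign. The highest difference of the list over both sexes was that of Mpzl1, at 0.16 (0.059 in females).

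Among 19 genes of myelinating oligodendrocytes, 4 of them dim, 3 had positive and 16 negative differences over both sexes, with a median of -0.086. In females the median was -0.041 with 14 negative, and in males it was -0.17 with 18 negative. Mog, a glycoprotein of the outer myelin surface and a dim gene, had -0.36 over both sexes (SE 0.07, limma adjusted p = 0.294), Mag, a glycoprotein of the inner myelin membrane, had -0.29 (SE 0.10, adjusted p = 0.347), and Aspa, the enzyme that breaks down N-acetylaspartate, had -0.17 (SE 0.08, adjusted p = 0.429). Mag stood at 7.24, 7.17 and 6.85 in the TP arrays (2 female, 1 male), against 7.43, 7.29 and 7.41 in the vehicle arrays, so the groups did not overlap, which held in this direction for 9.12% of all probe sets. The male TP array was the lowest of the 6, as at the brightest probe sets of Sox10 and Gpr17. The other Sox10 probe sets had their lowest values on female arrays. The male TP array also held the lowest value for 27.5% of all measured genes. The Mag difference was -0.15 in females (adjusted p = 0.706) and -0.55 in males. For Mog the values were -0.30 in females and -0.46 in males, and for Aspa -0.13 in females and -0.26 in males. These genes were named for the smallest p. Of the 19 genes, 2 had an unadjusted p under 0.05 over both sexes (limma), where 1942 of 18193 genes did. The highest difference was that of Cldn11, at 0.062 (0.18 in females). Mbp, the brightest gene of the list, had -0.076 (-0.0024 in females).

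**Figure D3:**
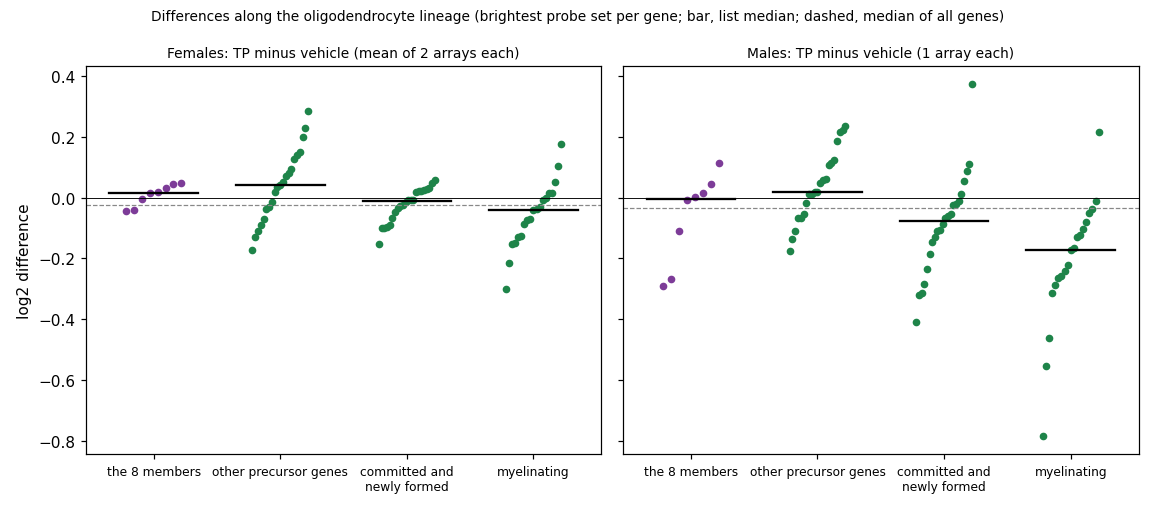
Log2 difference, TP minus vehicle, of each gene by stage of the lineage, in females (left, means of 2 arrays each) and males (right, 1 array each), with 1 point per gene; black bars are list medians and the dashed line is the median of all genes. The female medians are 0.016 for the 8 genes, 0.043 for other precursor genes (-0.012 with averaged probe sets), -0.012 for committed and -0.041 for myelinating cells. The male medians are -0.0038, 0.020, -0.077 and -0.17.

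Growth factor signals and upstream regulators were listed too. Of the 4 PDGF ligand genes and Pdgfrb, the receptor of pericytes, none passed (limma), 0 had an unadjusted p under 0.05 in either TP comparison, and differences over both sexes lay between -0.072 for Pdgfc (-0.039 in females) and 0.065 for Pdgfrb (0.022 in females). Pdgfa, the ligand of Pdgfra, had 0.043 (SE 0.06, adjusted p = 0.821) and 0.012 in females. For Pdgfa and for Pdgfrb, 1 of 2 probe sets had the opposite sign. Among 37 regulators of specification and differentiation, 14 were positive and 23 negative over both sexes (median -0.030), and the female median was -0.025. The lowest was Nkx6-1, a homeodomain factor of the ventral neural tube and a dim gene, at -0.51 (SE 0.08, adjusted p = 0.249), and the next by p was Gli1, a target and effector of hedgehog signalling and also dim, at -0.34 (SE 0.08, adjusted p = 0.301). Nkx6-1 stood at 4.65, 4.82 and 4.75 in the TP arrays (2 female, 1 male), against 5.18, 5.12 and 5.46 in the vehicle arrays, and its groups did not overlap, as for 9.12% of all probe sets in this direction. In females alone the differences were -0.41 for Nkx6-1, -0.28 for Gli1 and -0.17 for Smo. Smo, the signalling receptor of that pathway, had -0.15 (SE 0.07, adjusted p = 0.403), and 1 of its other 2 probe sets had the opposite sign. Of the 37 regulators, 3 had an unadjusted p under 0.05 over both sexes (limma), where 1942 of 18193 genes did. The highest differences were those of Id2, at 0.19 (0.11 in females), and Sox11, at 0.16 (0.076 in females).

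Several members are also expressed by other cells, so marker lists of those cells were set beside them, and their part in the members' values was not tested. Pericyte and smooth muscle markers, which share Cspg4, had 10 of 12 negative differences over both sexes (median -0.095, and -0.10 in females), and 2 of them were dim. Their mean levels were 7.45 to 7.51 in TP and 7.53 to 7.59 in vehicle arrays. Meningeal fibroblast markers, which share Pdgfra, also had 10 of 12 negative (median -0.10, and -0.045 in females), with mean levels of 8.39 to 8.54 in TP and 8.53 to 8.62 in vehicle arrays. Schwann cell and ensheathing glia markers, which share Sox10, had 8 of 10 negative (median -0.056, and -0.076 in females), and 5 of the 10 were dim. Their mean levels were 6.80 to 6.81 in TP and 6.85 to 6.88 in vehicle arrays. The brightest of them were Fabp7 (mean 13.74) and Npy (mean 10.90), which raise those levels. Markers of serotonin neurons and floor plate, which share Nkx2-2, had 5 of 7 negative (median -0.055, and -0.030 in females), and 3 of the 7 were dim. Their mean levels were 6.05 to 6.14 in TP and 6.10 to 6.20 in vehicle arrays. The array values carry no true zero, so no marker can be called absent.

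Hox genes of the hindbrain and spinal cord mark a region and not a cell type, and 7 of the 11 measured were dim. They had 10 of 11 negative (median -0.25, and -0.24 in females), at 5.43 to 5.70 in TP and 5.78 to 5.87 in vehicle arrays. Endothelial markers had 7 of 8 negative (median -0.10, and -0.073 in females), at 7.75 to 7.86 in TP and 7.92 to 7.93 in vehicle arrays. Astrocyte and radial glia markers had a median of -0.0066 over both sexes and 0.0052 in females. Neuron markers had -0.021 over both sexes and -0.022 in females, but 0.0076 over both sexes when the probe sets of a gene were averaged. Microglia markers had -0.033 over both sexes, 0.022 in females and 0.034 over both sexes with averaged probe sets, so the last 3 lists had no settled direction. Of the 14 lists without the sex-linked genes, 9 had their lowest mean level on the male TP array. That array held the lowest value for 27.5% of all measured genes, a share of single genes and not of list means. The lists share the arrays and some genes, so they are not separate observations.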

How the data were processed

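RNA pooled from 6 brains per array was measured on 6 Affymetrix 3' arrays. Per the submitters' processing notes the authors used RMA (background correction, quantile normalization and probe summary by its usual definition), with no version given in the sources used here. The deposited values are log2 expression per probe set, with the scale read from their range. Precision is limited by the number of arrays. Array medians were 5.69 to 5.74 and no 2 arrays shared the same value at more than 215 of 45101 probe sets.

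Probe sets were named through the platform annotation, checked by gene identifier against RefSeq (GRCm38.p6, no coordinates taken). Of the probe sets, 34945 had 1 gene, 932 several, 9160 none here and 64 were controls.

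Differences were fitted with limma 3.58.1 in R 4.3.3 (lmFit, eBayes, two-sided) on all single-gene probe sets with Benjamini-Hochberg adjustment. TP was compared with vehicle over 6 arrays with sex as a term and over the 4 female arrays, the sexes' TP effects in a 4-group model, and male with female with treatment as a term. Male TP against male vehicle was not tested. The scripts were tested on simulated data. Figures used Python 3.11.15 and matplotlib 3.10.9.

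All probe sets of the 8 genes are reported. From 15 lists (215 entries, 200 measured), up to 3 genes with the smallest p over both sexes are named, with sex-linked check genes and the 5 genes most like the members' mean. Entries without a measured gene are not analysed here. The members and lists were chosen with earlier results of these data known. Alternatives covered the probe sets tested, normalization, the spread model, the sex term, a replicate block and leaving out arrays, and 3 for the lists were chosen after seeing the data. The original and replica numbers are no stated pairing, so the block is an alternative only.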

Additional observations from a re-analysis of the deposited data

How the results depend on the processing

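No member probe set passed under any alternative that was run (smallest adjusted p 0.272 over both sexes, 0.355 in females and 0.680 for the contrast of female and male TP effects). Of 458 such values, 38 had the opposite sign to the main one, and the cause was not tested. Averaging a gene's probe sets gave Pdgfra -0.039 over both sexes, -0.091 in females and -0.15 between the sexes' effects, and Sox10 -0.010 in females. Centring on medians gave Pdgfra 1421916_at -0.0031 between the sexes' effects. Leaving out 1 array at a time over both sexes gave -0.061 to 0.10 for Pdgfra 1421916_at, -0.039 to 0.11 for Cspg4 1423341_at, -0.049 to 0.015 for Olig1, -0.045 to 0.018 for Olig2, -0.15 to 0.017 for Sox10 1451689_a_at, -0.13 to 0.032 for Gpr17, -0.069 to 0.035 for Nkx2-2 and -0.0053 to 0.090 for Sox8. For Gpr17, Sox10, Olig1 and Sox8 the sign turned without either male array, which leaves the female difference. In females it gave -0.12 to 0.17 for Pdgfra 1421916_at, -0.046 to 0.21 for Cspg4 1423341_at, -0.0044 to 0.034 for Olig1, -0.058 to 0.092 for Sox10 1451689_a_at, -0.20 to 0.085 for 1424985_a_at, -0.057 to 0.079 for 1425369_a_at, -0.0053 to 0.070 for Gpr17, -0.13 to 0.049 for Nkx2-2, -0.084 to 0.073 for Sox8, -0.079 to 0.0015 for Pdgfc, -0.088 to 0.13 for Pdgfrb and -0.040 to 0.064 for Pdgfa. Between the sexes' effects it gave -0.14 to 0.15 for Pdgfra 1421916_at, -0.017 to 0.24 for Cspg4 1423341_at and -0.15 to 0.033 for Nkx2-2. Averaged probe sets over both sexes gave Des 0.028, Smo 0.016, Pdgfrb -0.054 and Pdgfa -0.012, and in females Pdgfrb -0.064 and Pdgfa -0.024.

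Counts over all probe sets moved more. Over both sexes, 0 passed in the fit reported, 4 with unnamed and several-gene probe sets included, 38 with an intensity trend and 0 to 2 without 1 array. In females, 2 passed in the fit reported, 5 with the brightest probe set per gene, 5 with unnamed and several-gene probe sets, 1 without dim ones, 6 after quantile normalization, 8 after median centring, 16 with a trend and 0 by limma without any 1 array (1433 to 4415 at an unadjusted p under 0.05). For the difference between the sexes' effects 7 passed, against 2 with the brightest or the averaged probe sets and 12 with a trend. Between males and females 4 passed, against 10 with all probe sets, 0 without dim ones, 37 with a trend and 3 to 14 without 1 array. The replicate block changed no call of a member, where their smallest adjusted p in females was 0.498 (limma), and 2 probe sets passed with it. The deviations of same-numbered female arrays had r = 0.11 over probe sets.

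List medians over both sexes became, with averaged probe sets, -0.11 for myelinating cells, -0.050 for PDGF genes, -0.048 for pericytes, 0.0076 for neurons and 0.034 for microglia, and after quantile normalization -0.11 for myelinating cells and -0.045 for neurons. Without the male TP array they were -0.041 for myelinating cells, -0.045 for meningeal, -0.076 for Schwann cell, 0.022 for microglia and -0.073 for endothelial markers. In females, averaged probe sets gave -0.012 for other precursor genes, -0.0027 for regulators, -0.017 for pericytes, -0.019 for astrocytes and 0.017 for neurons, and quantile normalization gave -0.054 for Schwann cell markers and -0.044 for neurons.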
